A study of Mus musculus with 10 samples.

Results

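A set of 35 genes that make or carry amino acids, or that answer amino acid and endoplasmic reticulum stress through the transcription factor ATF4, was followed in natural killer cells (NKC) from the spleen of wild type (WT) and Runx3-/- (KO) mice, kept in culture. The genes were listed by name. They were then selected on measured level, through the probe set with the highest mean over the 10 arrays and a log2 signal of 5 or more in at least 2 arrays. Of the 35 listed genes 34 had a probe set with a single symbol (Pycr1, an enzyme of proline synthesis, had none), and 33 passed the filter, out of 9391 genes that passed of 18194 with a probe set. The faintest gene to pass was Vldlr, with 5.1 and 6.81 in WT IL-2 arrays 1 and 3 and under 5 elsewhere. Slc7a11 did not pass, its chosen probe set reading 3.37 to 3.74. Nupr1, Vldlr, Cth and Slc7a3 passed through WT IL-2 arrays alone, so that a lower KO level was built into their passing, and 3 of them are among the genes called below. Counts over the 33 genes are therefore descriptions.

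The samples were NKC of ICR mice aged 6 weeks, labelled male or female, each from its own mouse, enriched from spleen by negative selection and, according to the methods, sorted for DX5. Culture lasted 7 days. Human IL-2, at 1000 u/ml, was given to the cells of 6 arrays (3 WT, 3 KO) and mouse IL-15 to those of 4 (2 WT, 2 KO). The KO mice carried the Runx3-/- genotype and the WT mice Runx3+/+, which is the genotype of the whole mouse and not of NKC alone. In bulk samples such as these, fewer cells of a type and less RNA per cell cannot be told apart. Values are log2 signals, from which differences between the numbered WT and KO pairs of a cytokine had been removed before deposit, so that a WT and a KO array of one number mirror each other around the mean of their cytokine.

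ATF4 is a basic leucine zipper factor. Its messenger RNA is translated best when the initiation factor eIF2 is phosphorylated, which happens when amino acids run short, when proteins misfold in the endoplasmic reticulum or when haem is scarce. Together with C/EBP partners it binds a composite element with the core TGATGNAA and raises enzymes of asparagine, serine and cysteine synthesis, amino acid carriers, tRNA synthetases and a feedback arm that includes CHOP, TRIB3 and CHAC1. Dividing lymphocytes need these supplies for protein and nucleotide synthesis, and their amino acid carriers rise on activation.

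Promoter sequences were matched for 31 of the 35 genes in RefSeq windows (GRCm38.p6) of 250 bases before and 50 bases from the start of transcription. Cth, Slc7a3, Slc7a5 and Slc1a5 were not matched. TGATGNAA, searched on both strands, was held by 10 of the 31 genes (32.3%) and by 1219 of 27025 genes in all (4.51%). Among the genes with a matched window that fell in KO NKC in IL-2 it was found in 6 of 12 (Asns, Atf3, Chac1, Nupr1, Slc1a4 and Trib3), and among those tested and not called in 2 of 17 (Got1 and Vldlr). It also occurred in Pycr1 and at 2 places in Slc7a11. Of the forms of the RUNX motif only TGTGGT and TGCGGT were searched. TGTGGT was held by 3 of the 31 genes (9.68%, against 18.9% of all genes) and TGCGGT by 1 (3.23%, against 7.34%), and neither by any of the 12 genes that fell. A match describes letters and shows no binding. The genes were listed in part because they answer through ATF4, so their share of its element follows in part from that choice. Nupr1 and Vldlr had passed the filter through WT IL-2 arrays alone. Whether the falls go with the element was not tested. Shown are 5 of the genes that fell and hold the core at or before their start, with Got1, which was not called, for comparison, each 5′ to 3′ on the strand of its gene with the match in capitals. The 5 matches of Atf3, Chac1, Nupr1, Slc1a4 and Got1 read alike, TTGCATCA, the element on the opposite strand.
Asns, chr6:7693210-7693258, minus strand: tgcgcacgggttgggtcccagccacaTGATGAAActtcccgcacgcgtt
Atf3, chr1:191183410-191183469, minus strand: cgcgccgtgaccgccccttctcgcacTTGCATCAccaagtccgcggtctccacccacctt
Chac1, chr2:119351023-119351082, plus strand: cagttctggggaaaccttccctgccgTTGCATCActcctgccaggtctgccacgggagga
Nupr1, chr7:126625547-126625606, minus strand: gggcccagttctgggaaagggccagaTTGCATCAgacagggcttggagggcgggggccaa
Slc1a4, chr11:20332710-20332743, minus strand: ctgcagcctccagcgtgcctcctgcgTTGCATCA
Got1, chr19:43524674-43524733, minus strand: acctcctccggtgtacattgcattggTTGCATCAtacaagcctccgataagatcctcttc

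In IL-2, 15 of the 33 genes fell in KO NKC and none rose. Across all genes 19.7% were called in this comparison and 9.17% were called lower. Calling a gene took a limma p under 0.05, adjusted by Benjamini-Hochberg over all genes, and a difference of at least 1.5-fold, and rose, fell and changed are used here only of such genes. The median KO minus WT difference was -0.99 on the log2 scale, beside 0.11 over all genes, and 29 of the 33 genes were below zero. In 26 of them every KO array lay under every WT array, as it did for 23.2% of all genes. Leaving aside the 4 genes that passed through WT IL-2 arrays alone, 12 of 29 fell. Stress effectors and enzymes outside the serine pathway held 8 of the 15 falls, at 4 of 6 genes in each group.

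**Figure D1:**
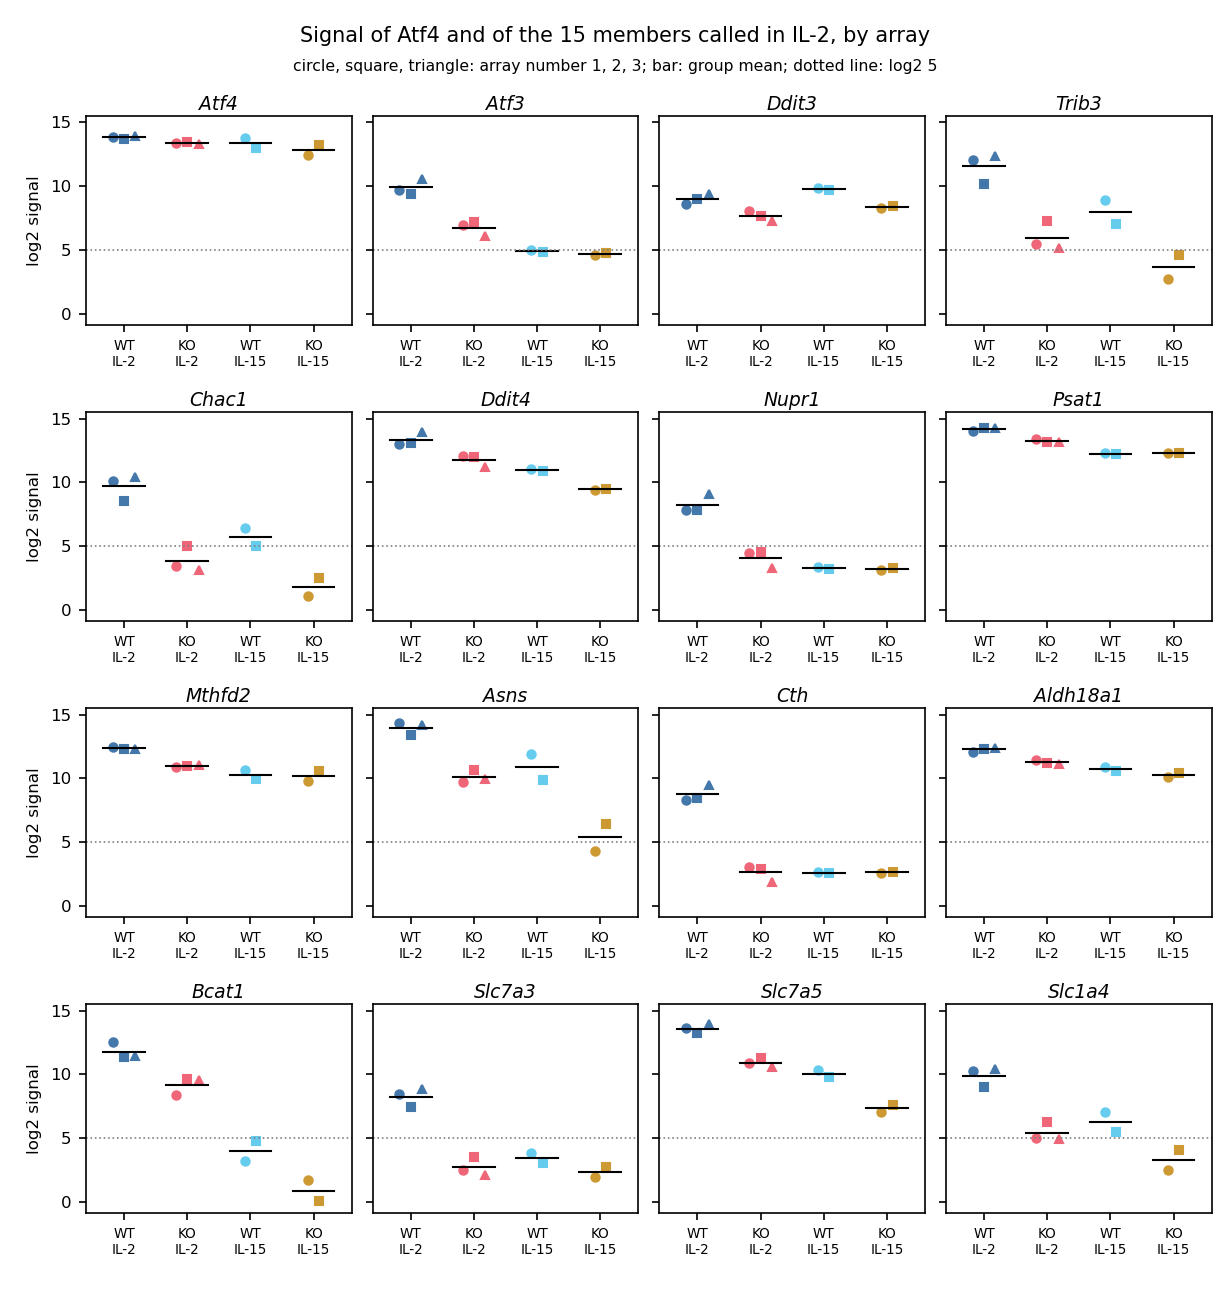
Log2 signal (y axis) of Atf4 and of the 15 genes called in IL-2, by group (x axis), with 1 symbol an array. Bars are group means and the dotted line marks log2 5. Atf4 stays between 12.46 and 13.91 throughout, while Cth is above log2 8 in the 3 WT IL-2 arrays and under log2 5 in the other 7.

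Among the transcription factors, Atf4 itself was bright in every group. Its probe set read 13.85, 13.73 and 13.91 in WT and 13.36, 13.48 and 13.3 in KO NKC in IL-2. The KO arrays were all under the WT arrays, by a small margin. The difference of -0.45 ± 0.18 (SD, 3 pairs) was not called (adjusted p = 0.373, limma). A further Atf4 probe set gave 12.87, 12.74 and 13.04 in WT against 11.53, 11.65 and 11.35 in KO. Tested by itself, that probe set fell (-1.37 ± 0.3 SD, 3 pairs), with an adjusted p of 0.0329 in limma over all probe sets, so that the 2 probe sets of Atf4 disagreed on the call and shared the direction.

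Atf3, a stress-induced factor of the same family, read 9.74, 9.44 and 10.58 in WT and 6.95, 7.25 and 6.1 in KO arrays. The groups were far apart, and Atf3 fell 8.89-fold (-3.15 ± 1.19 SD, 3 pairs, adjusted p = 0.00593, limma). Ddit3, which encodes CHOP, read 8.62, 9.03 and 9.43 in WT and 8.09, 7.68 and 7.28 in KO arrays. Here the groups came close without overlap, at a difference of -1.34 ± 0.81 (adjusted p = 0.0377), a 2.53-fold fall. Atf5, another ATF4 target of this family, differed by -1.69 ± 1.49 and Cebpg, whose product C/EBPγ pairs with ATF4, by -1.11 ± 0.68, and neither was called (adjusted p = 0.0732 and 0.0572). Cebpb was at 0.34 ± 0.88, its WT and KO arrays overlapping.

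The stress effectors held some of the lowest KO values. Trib3, a pseudokinase that restrains ATF4 and CHOP, read 12.06, 10.22 and 12.4 in WT and 5.49, 7.33 and 5.15 in KO arrays. WT array 2 was the lowest of its group, which makes its KO partner the highest, since the arrays of a pair mirror each other. The groups lay well apart. The mean difference of -5.57 ± 2.34 (SD, 3 pairs, adjusted p = 0.0113, limma) was a 47.5-fold fall. Chac1, an enzyme that degrades glutathione, read 10.08, 8.57 and 10.45 in WT and 3.5, 5 and 3.13 in KO arrays. The KO arrays were at or under the filter of log2 5, so the fall is given as at least 26-fold (log2 difference -5.82 ± 1.99, adjusted p = 0.00588). Nupr1, a small stress-induced chromatin protein, read 7.88, 7.83 and 9.08 in WT and 4.48, 4.53 and 3.28 in KO arrays. All 3 KO arrays were under the filter, and the fall was at least 9.59-fold (-4.16 ± 1.42, adjusted p = 0.0047, limma). A lower KO level was built into its passing the filter, which rested on WT IL-2 arrays alone.

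Ddit4, whose product REDD1 restrains the growth kinase mTORC1, was bright in both genotypes, with 13.01, 13.09 and 13.93 in WT and 12.09, 12.01 and 11.18 in KO arrays. The groups did not overlap, and Ddit4 fell 3-fold (-1.59 ± 1.01, adjusted p = 0.0343, limma). Sesn2, a leucine sensor that also restrains mTORC1, was at -0.67 ± 0.88 and the lipoprotein receptor gene Vldlr at -2.33 ± 2.49, and neither was called (adjusted p = 0.239 and 0.0884). For Vldlr 1 pair set the mean, since pair 3 differed by -5.09 and pair 2 by -0.25.

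Of the 8 enzymes of serine synthesis and folate-linked carbon transfer, 2 fell. Psat1, the aminotransferase of serine synthesis, read 14.04, 14.25 and 14.28 in WT and 13.39, 13.18 and 13.15 in KO arrays. The KO arrays were close to each other and all under WT, a 1.93-fold fall (-0.95 ± 0.26 SD, 3 pairs, adjusted p = 0.0368, limma). Mthfd2, the mitochondrial dehydrogenase of the folate cycle, read 12.46, 12.34 and 12.31 in WT and 10.88, 11 and 11.03 in KO arrays. It had a narrow spread, the same in both genotypes because paired arrays mirror each other, and fell 2.63-fold (-1.4 ± 0.16, adjusted p = 0.0299, limma). The enzymes beside Psat1 in the same route moved little: Phgdh, which opens serine synthesis, was at -0.21 ± 0.12 and Psph, which closes it, at -0.05 ± 0.45. For Phgdh the 95% interval of the difference ran from -0.76 to 0.33 and for Psph from -0.75 to 0.65. The cytosolic enzymes Shmt1 (0.8 ± 1.18) and Mthfd1 (0.57 ± 0.67) lay above zero and overlapped between genotypes, and the mitochondrial Shmt2 (-0.31 ± 0.06) and Mthfd1l (-0.47 ± 0.35) lay below. None of these 6 was called.

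Among the other enzymes, Cth, which releases cysteine from cystathionine, had the lowest adjusted p of the set. Cth passed the filter through WT IL-2 arrays alone, so that a lower KO level was built into its passing. It read 8.33, 8.47 and 9.47 in WT and 3.09, 2.95 and 1.94 in KO arrays, a fall of at least 13.5-fold (-6.1 ± 1.25 SD, 3 pairs, adjusted p = 0.00137, limma). All KO arrays were under the filter, as were all 4 IL-15 arrays. Asns, asparagine synthetase and a long-studied ATF4 target, read 14.34, 13.43 and 14.15 in WT and 9.74, 10.65 and 9.93 in KO arrays. KO NKC still gave a clear signal, under every WT array, and the fall was 14.6-fold (-3.87 ± 0.96, adjusted p = 0.016). Bcat1, the cytosolic aminotransferase of leucine, isoleucine and valine, read 12.54, 11.34 and 11.41 in WT and 8.4, 9.61 and 9.53 in KO arrays. Pair 1 differed most, and the fall was 6.01-fold (-2.59 ± 1.35, adjusted p = 0.0432).

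Aldh18a1, the enzyme that opens proline synthesis, read 12.08, 12.32 and 12.41 in WT and 11.48, 11.24 and 11.15 in KO arrays, without overlap. It fell 1.97-fold (-0.98 ± 0.34, adjusted p = 0.0469, limma), the call closest to the threshold. Tested by itself among all probe sets, the chosen probe set of Aldh18a1 was not called, nor was that of Bcat1 (adjusted p = 0.0547 and 0.0508, limma). Got1, the cytosolic aspartate aminotransferase, was at -0.12 ± 0.27 and Bcat2, the mitochondrial counterpart of Bcat1, at 0.63 ± 1.32, both with overlapping arrays and not called.

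Of the 7 amino acid carriers tested 3 fell. Slc7a3, a carrier of arginine and lysine, read 8.5, 7.45 and 8.88 in WT and 2.51, 3.56 and 2.13 in KO arrays. KO NKC were under the filter in each array, a fall of at least 9.68-fold (-5.54 ± 1.48 SD, 3 pairs, adjusted p = 0.00293, limma). For Slc7a3, too, a lower KO level was built into passing the filter through WT IL-2 arrays alone. Slc7a1, the related carrier of the same amino acids, was bright in both genotypes (13.12 in WT and 12.77 in KO, a difference of -0.34 ± 0.18, adjusted p = 0.387). Slc1a4, which carries alanine, serine and cysteine, read 10.27, 9.04 and 10.39 in WT and 5.06, 6.29 and 4.94 in KO arrays. KO levels were near the filter, and the fall was 22.2-fold (-4.47 ± 1.49, adjusted p = 0.00927). Its relative Slc1a5, the main glutamine carrier of many dividing cells, was at -0.57 ± 0.07 (adjusted p = 0.133).

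Slc7a5, the light chain of the leucine carrier LAT1, read 13.65, 13.22 and 13.91 in WT and 10.86, 11.3 and 10.61 in KO arrays. The genotypes did not overlap, and the fall was 6.36-fold (-2.67 ± 0.7, adjusted p = 0.00574, limma). Slc3a2, the heavy chain CD98 that LAT1 needs at the membrane, differed by -0.99 ± 0.58 without being called (adjusted p = 0.0638). Slc38a2, a carrier of small neutral amino acids, was at -0.19 ± 0.48 with overlapping arrays. A further bright probe set of Slc38a2 lay the other way (0.79 ± 0.59), every KO array above every WT array, and was not called either.

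Slc7a11, the cystine carrier xCT, could not be judged from its chosen probe set, which was dim in all arrays. Its other probe set, whose mean over the arrays (3.6392) was just under that of the chosen one (3.647), read 6.53, 6.88 and 7.37 in WT IL-2 arrays. In KO IL-2 arrays it read 2.52, 2.17 and 1.69, and in the 4 IL-15 arrays 2 to 2.61. WT IL-2 arrays were thus the only ones above the filter. This probe set was picked after its values were seen and passes the filter through those arrays alone, so no test is given. Of the 15 genes that fell, 7 had further probe sets bright enough to test, and all 11 of these were below zero in IL-2, 7 of them called, beside 16.5% of all probe sets. Among the 7 called, the further probe sets of Nupr1 and Slc1a4 reached log2 5 in WT IL-2 arrays alone. A lower KO level was thus built into their passing the filter.

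**Figure D2:**
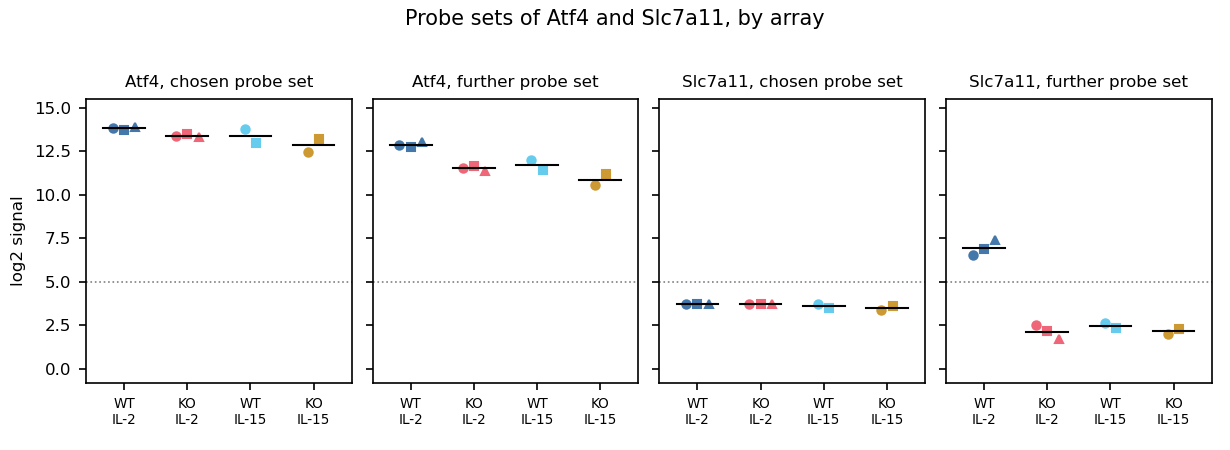
Log2 signal (y axis) of 2 probe sets of Atf4 and 2 of Slc7a11, by group (x axis), with 1 symbol an array. Bars are group means and the dotted line marks log2 5. The further probe set of Atf4 separates WT (12.74 to 13.04) from KO (11.35 to 11.65) in IL-2 more widely than the chosen one does, and the further probe set of Slc7a11 exceeds log2 5 in WT IL-2 arrays alone.

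The pairs did not weigh alike in IL-2. Pair 3 had the deepest difference for 21 of the 33 genes, pair 2 for 9 and pair 1 for 3, while over all genes pair 3 was deepest for 40.6%, pair 2 for 44.1% and pair 1 for 15.4%. Of the 15 genes that fell, 12 were deepest in pair 3 and 9 were smallest in pair 2, and each was below zero in all 3 pairs. Without pair 1, 2 or 3 the number of genes called was 5, 9 and 8. Over all genes 253, 551 and 888 were then called higher and 284, 475 and 637 lower. Atf3, Cth, Nupr1, Slc7a3 and Slc7a5 were called whichever array was left out, of which Cth, Nupr1 and Slc7a3 had passed the filter through WT IL-2 arrays alone. Ddit3, Ddit4, Psat1 and Aldh18a1 lost their call whichever array was left out, and also with only the IL-2 arrays. Ddit3 lost it with the mean of all probe sets of a gene too. With no filter on low values 5 genes were called in all.

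**Figure D3:**
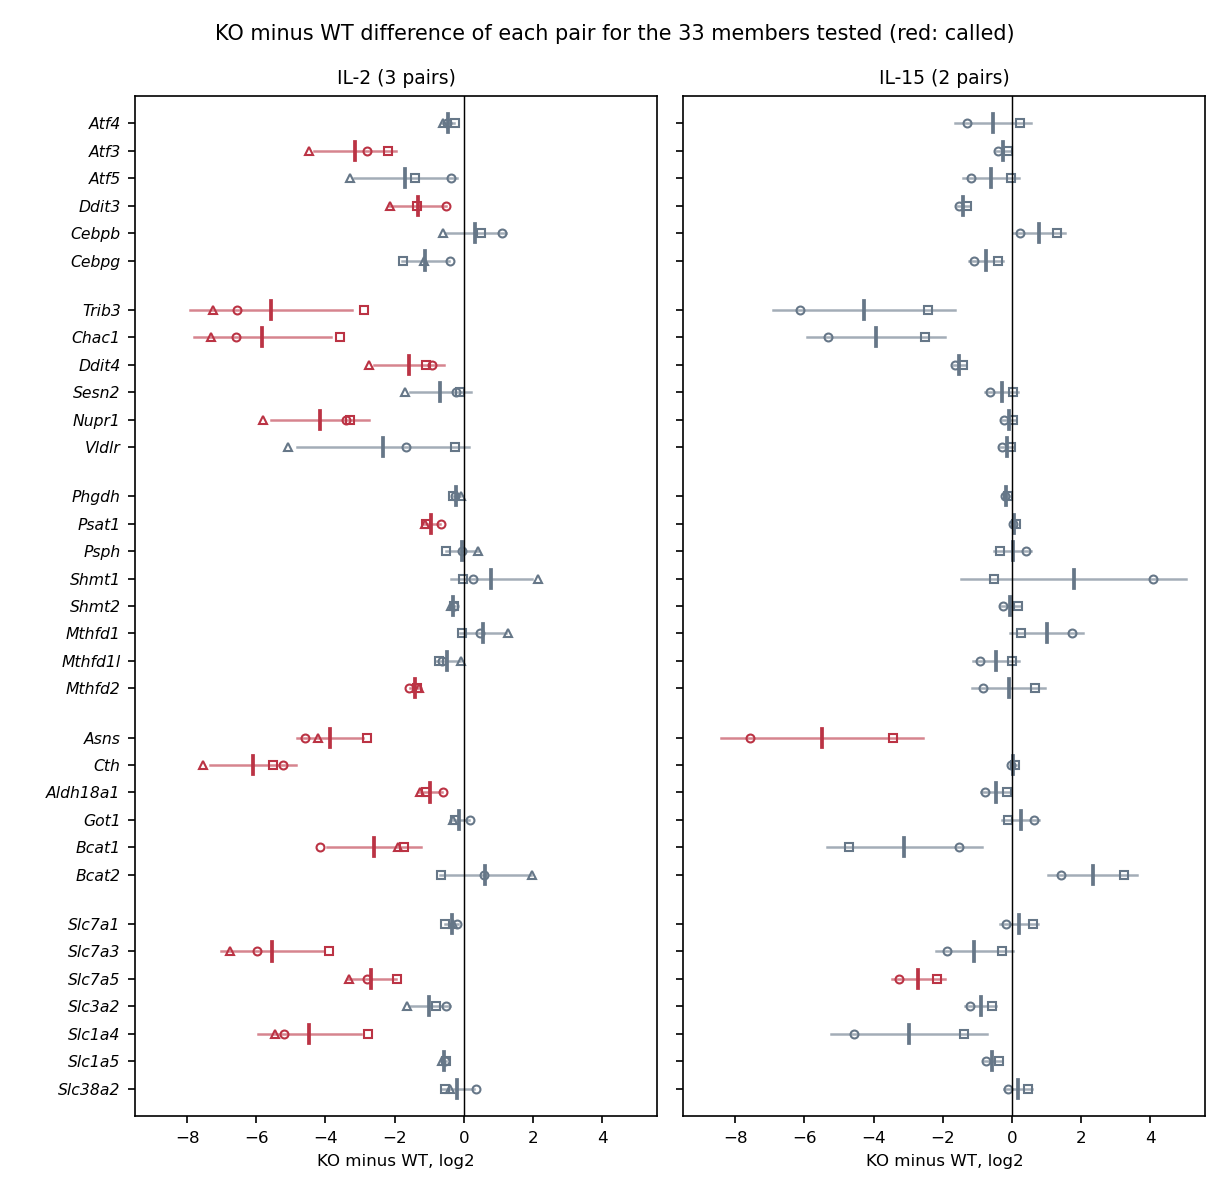
Log2 difference of KO from WT (x axis) of each of the 33 genes (y axis, grouped as factors, stress effectors, serine and folate enzymes, other enzymes and carriers) in IL-2 (left) and IL-15 (right). Symbols are pairs 1 (circle), 2 (square) and 3 (triangle), bars the mean and lines 1 SD, with called genes in red: 15 in IL-2 and 2 in IL-15.

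In IL-15, 2 of the 33 genes fell in KO NKC and none rose, beside 1.3% of all genes called and 0.841% called lower (0.458% higher). The all-gene calls were 43 higher and 79 lower, or 41 and 47 after quantile normalization. The median difference was -0.29 (-0.01 over all genes). KO arrays were all under WT arrays for 17 genes, and for 32.9% of all genes, which with 2 arrays a group is easily met. Asns read 11.91 and 9.85 in WT and 4.36 and 6.42 in KO arrays. Its KO arrays lay around the filter, and the fall was 45-fold (-5.49 ± 2.92 SD, 2 pairs, adjusted p = 0.0488, limma). Slc7a5 read 10.32 and 9.77 in WT and 7.07 and 7.62 in KO arrays, without overlap, a 6.51-fold fall (-2.7 ± 0.78, adjusted p = 0.0483). Both calls sat at the threshold and were lost without any 1 of the IL-2 arrays, while 1 call was left without an array of IL-15 pair 2 and none without an array of pair 1. In a fit without the pair block, whose spread is too small, 10 genes were called, 9 lower and 1 higher, and so were 14.1% of all genes.

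Of the 15 genes that fell in IL-2, 10 had an IL-15 group mean of log2 5 or more, and 9 of these, all but Psat1, were below zero in IL-15, as were 50.9% of all genes. Trib3 read 8.92 and 7.06 in WT and 2.79 and 4.65 in KO arrays. Chac1 read 6.43 and 5.02 in WT and 1.11 and 2.51 in KO arrays. Slc1a4 read 7.1 and 5.5 in WT and 2.53 and 4.13 in KO arrays. For these 3 genes the KO arrays were under the filter and the WT arrays above it, yet the pairs differed widely (SD of 2.63, 1.99 and 2.25 around -4.27, -3.92 and -2.97) and none was called. Ddit3 read 9.86 and 9.74 in WT and 8.33 and 8.45 in KO arrays, and Ddit4 11.03 and 10.91 against 9.39 and 9.51. Their pairs were close to each other (-1.41 ± 0.17 and -1.52 ± 0.17), with adjusted p of 0.192 and 0.214.

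For 5 of the genes that fell in IL-2, and for Vldlr, both IL-15 groups had means under log2 5, which leaves no difference to measure. Cth read 2.66 and 2.6 in WT and 2.62 and 2.68 in KO arrays, Nupr1 3.4 and 3.27 against 3.18 and 3.31, and Slc7a3 3.86 and 3.07 against 1.99 and 2.78. Atf3 read 5.04 and 4.89 in WT against 4.63 and 4.78 in KO, and Bcat1 3.23 and 4.82 against 1.71 and 0.12. Every KO array lay above the WT arrays for 4 genes, Bcat2 (2.34 ± 1.29), Mthfd1 (1.01 ± 1.05), Cebpb (0.78 ± 0.75) and Psat1 (0.07 ± 0.07), none of them called, and for 31.7% of all genes. Atf4 read 13.76 and 12.99 in WT and 12.46 and 13.22 in KO arrays, and its difference of -0.54 ± 1.09 had opposite signs in the 2 pairs. Its further probe set read 12.01 and 11.39 in WT and 10.55 and 11.17 in KO arrays. These did not overlap, and the difference of -0.85 ± 0.88 was not called. Psat1 (12.27 and 12.23 against 12.29 and 12.34), Aldh18a1 (10.89 and 10.58 against 10.12 and 10.43) and Mthfd2 (10.68 and 9.93 against 9.84 and 10.59) were not called. Pair 1 was deepest for 28 of the 33 genes, against 46% of all genes.

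The KO effect in IL-15 minus that in IL-2 was called for none of the 33 genes and for 0 of all genes (0%) by limma. At an unadjusted p under 0.05 there were 6 of the 33 genes (Atf3, Nupr1, Psat1, Mthfd2, Cth and Slc7a3) and 1106 of all genes. In all 6 the effect was nearer zero or above in IL-15. For Cth the difference of effects was 6.12 (95% interval 4.42 to 7.83, adjusted p = 0.0666). Atf3, Nupr1, Cth and Slc7a3 are genes with both IL-15 groups under the filter. Without the pair block 5 genes were called, and 12.3% of all genes. For Asns (-1.62, 95% interval -4.44 to 1.19) and Slc7a5 (-0.03, -1.39 to 1.32) the interval included zero.

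Levels in the 2 cytokines were then compared within each genotype. In WT NKC 27 of the 33 genes were lower in IL-15 than in IL-2, with 48% of all genes called and 18.7% called lower. In 29 genes all IL-15 arrays lay under the IL-2 arrays (28.9% of all genes). The median was -1.89, beside 0.18 over all genes. In KO NKC 21 were lower, with 46.1% of all genes called and 22.5% called lower, and 24 genes did not overlap in that direction (36.5% of all genes), at a median of -1.05 (-0.08 over all genes). These 21 genes were among the 27, and the other 6 were Cebpb, Chac1, Cth, Nupr1, Slc7a3 and Trib3. Of the 27, Cth, Nupr1, Slc7a3 and Bcat1 reached log2 5 in IL-2 arrays alone, and so did Vldlr, among the 29 without overlap. A lower IL-15 level was thus built into their passing the filter, and Bcat1 is also among the 21. The comparison in WT shares its WT IL-2 arrays with that of KO and WT in IL-2, and a low WT IL-15 level and a low KO IL-2 level are thus set against the same 3 arrays.

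All 8 serine and folate enzymes fell with IL-15 in both genotypes. In KO the call of Mthfd2 (-0.76, adjusted p = 0.0401, limma) was lost with no filter and with arrays centred on the median. Phgdh had 14.25 in WT and 14.04 in KO as group means in IL-2, and 12.75 and 12.6 in IL-15, differences of -1.5 and -1.44 (SE 0.11 in each). Shmt2 differed by -1.89 and -1.61 (SE 0.13). Shmt1 went from 10.25 to 4.83 in WT, at least 38.1-fold, and from 11.05 to 6.62 in KO, 21.5-fold. Its chosen probe set read 3.68 to 7.77 over the IL-15 arrays. The further tested probe sets of Shmt1 differed less, by -0.74, -0.66 and -1.99 in WT and by -1.18, -0.42 and -2.5 in KO. Bcat1 went from 11.77 to 4.02 in WT (at least 109-fold, adjusted p = 5.98e-05, limma) and from 9.18 to 0.91 in KO (at least 18.1-fold, adjusted p = 5.21e-05). Bcat1 reached log2 5 in IL-2 arrays alone, which built a lower IL-15 level into its passing the filter. Slc7a5 was at -3.55 in WT and -3.58 in KO, and Slc1a5 at -1.55 in each.

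A few genes went the other way. Cebpg was higher in IL-15 in WT by 1.1 and in KO by 1.46, but a further bright probe set of Cebpg lay the other way (-0.42 and -0.2), and with the mean of its probe sets the WT call was lost. Ddit3 was higher in WT by 0.77 (adjusted p = 0.0443, limma, lost after quantile normalization), at 9.02 in IL-2 and 9.8 in IL-15. Slc38a2 was called higher in KO alone (0.87, against 0.51 in WT with an adjusted p of 0.068 in limma). With the mean of its probe sets the KO call of Slc38a2 was lost, and its further bright probe set was at 1.22 in WT and 0.45 in KO. Atf4 was not called in either genotype (-0.46 and -0.54), while its further probe set was at -1.18 in WT and -0.65 in KO. Taking the 4 groups together, 26 of the 33 genes had their highest mean in WT IL-2, where 20.1% of all genes had theirs. Nupr1, Vldlr, Cth and Slc7a3, which passed the filter through WT IL-2 arrays alone, are among the 26. The cytokine groups also differed in sex-linked genes. Xist read 4.64 to 5.37 in IL-2 and 14.28 to 14.66 in IL-15, and the Y-linked Eif2s3y 7.31 to 9.17 and 2.34 to 2.43, so that cytokine and the sex of the mice cannot be told apart. Since pair differences had been removed, the spread in these fits is also too small and so are their p-values. After quantile normalization the median of all genes in WT moved from 0.18 to -0.05 and the calls from 2758 higher and 1754 lower to 2147 and 2457. Of the 33 genes 28 were then lower in WT.

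Genes of neighbouring pathways were taken from further lists, whose counts in IL-2 are to be read beside the 9.17% of all genes called lower and the 10.5% called higher. Of 19 tRNA synthetases tested, which charge tRNAs with amino acids and include known ATF4 targets, 11 fell in KO NKC in IL-2 and none rose, with a median of -0.99. The deepest were Cars (-2.35 ± 0.13 SD, 3 pairs), Eprs (-2.17 ± 0.84) and Lars (-2.16 ± 0.56), for cysteine, glutamate with proline, and leucine. In IL-15 only Cars fell among them, by at least 5.12-fold (-2.7 ± 0.33, 2 pairs). Cars read 8.45, 8.44 and 8.56 in WT and 6.17, 6.18 and 6.06 in KO IL-2 arrays, then 7.24 and 7.47 against 4.77 and 4.54 in IL-15. Among 16 further reported targets of ATF4 or CHOP 9 fell and 2 rose (median -1.35). They included Vegfa, the vascular growth factor (at least 17.6-fold, -5.71 ± 1.04), Gpt2, the mitochondrial alanine aminotransferase (at least 29.9-fold, -5.33 ± 1.53), and Ero1a, an oxidase of the endoplasmic reticulum (-3.66 ± 0.39). Gpt2 was also the 1 gene that fell of 14 other amino acid and glutamine enzymes (median 0.1). A tRNA synthetase among the 9 targets that fell is also counted in the 11 above, so these lists overlap.

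Upstream of ATF4, 4 of 15 genes for eIF2 subunits, eIF2 kinases, the eIF2B exchange factor and eIF2 phosphatase fell in IL-2 and none rose (median 0.03). Eif2ak3, which encodes the endoplasmic reticulum kinase PERK, fell in IL-2 (-1.81 ± 0.36) and in IL-15 (-2.17 ± 0.53), while Eif2s2 (-2.36 ± 1.1) and Eif2b3 (-1.85 ± 0.28) were called in IL-2. Of 21 chaperones and genes of the unfolded protein response 3 fell (Pdia4 -1.3, Hsp90b1 -1.15 and Creld2 -0.95), with a median of -0.52. Aldh1l2, a mitochondrial folate enzyme, was the 1 call among 10 other folate and purine enzymes (at least 1.36-fold lower), but it reached log2 5 in WT IL-2 arrays alone, which built a lower KO level into its passing the filter. Other carriers went both ways, 2 of 9 rising and 2 falling: Slc36a1 rose by 2.91 ± 0.66 and Slc43a2 by 2.32 ± 0.59, and Slc6a9, a glycine carrier, fell (-2.74 ± 1.16). Of 14 glutathione and NRF2 genes 4 rose and 1 fell (median 0.24). Nqo1, a quinone reductase, rose at least 1.61-fold (2.37 ± 0.53), Nfe2l2, which encodes NRF2, rose 4.75-fold (2.25 ± 0.72), and Hmox1, haem oxygenase, fell 5.2-fold (-2.38 ± 0.6). Nqo1 reached log2 5 in KO IL-2 arrays alone, which built a higher KO level into its passing the filter. Of 16 regulators of mTORC1 and Myc the Myc antagonist Mxd1 rose (2.21 ± 1.03) and no other gene was called.

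**Figure D4:**
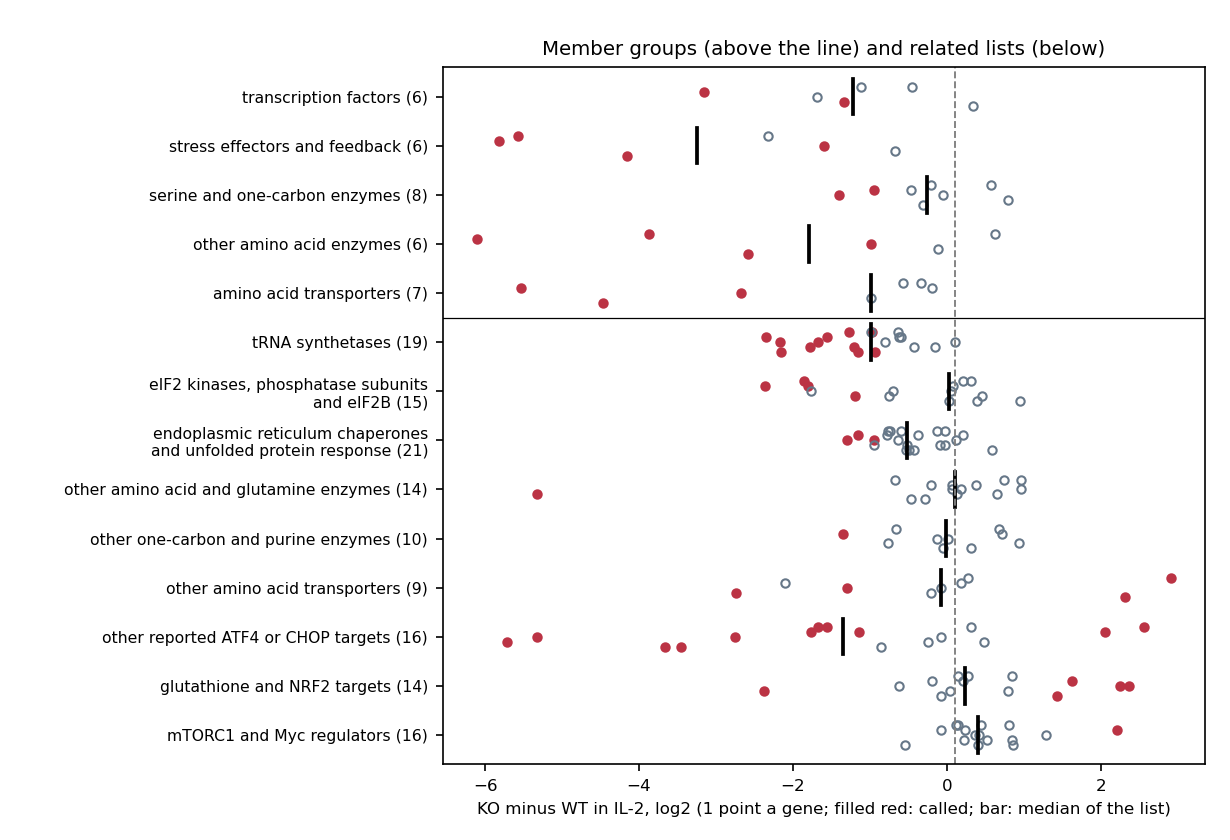
Log2 difference of KO from WT in IL-2 (x axis) for each gene of the 5 groups of the set and of 9 related lists (y axis, with the number of genes tested), called genes filled red, the median of each list as a bar and that of all genes (0.11) dashed. Stress effectors and other amino acid enzymes lie furthest left, tRNA synthetases have a median of -0.99 and glutathione and NRF2 genes have one of 0.24.

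Array medians were 3.2 to 3.37 and 34.6% to 36.7% of probe sets reached log2 5. Runx3 read 11.31, 11.57 and 12.06 in WT and 11.41, 11.15 and 10.66 in KO IL-2 arrays, overlapping, and 12.45 and 12.51 against 11.41 and 11.35 in IL-15. Where its probes lie relative to the deletion is not given in the sources used here, so this does not check the genotype. Of 12 NKC genes tested 2 rose and 1 fell in KO NKC in IL-2 and none was called in IL-15. Their summed log2 levels, over 13 of 14 genes, were 154.6 to 157.7 in both genotypes in IL-2, and 162.7 to 163.2 in WT and 157.4 to 157.9 in KO in IL-15. Itga2, the gene of the DX5 antigen, lay under log2 5 throughout. Of markers of other cells, B cell genes were higher in KO IL-2 arrays, with summed log2 levels of 29.4 to 30.3 over 6 of 7 listed genes against 21.6 to 22.5 in WT, and of 24.9 to 25.2 against 23 to 23.3 in IL-15. Both tested genes, Blk and Ighm, rose, and Cd79a, Cd79b, Ms4a1 and Pax5 were under log2 5 in every group. Of the group means of Blk only that of KO IL-2 was above log2 5 (8.1, against 2.61 to 3.34). A higher KO level may thus have been built into its passing the filter. Mast cell and basophil genes summed to 38.5 to 42.3 in WT and 25.2 to 29 in KO IL-2 arrays and to 34.6 to 37.8 and 20.7 to 23.9 in IL-15, over 7 of 7 genes. Of the 3 tested, 2 fell in each cytokine, Mcpt8 and Cma1, and Fcer1a, Ms4a2, Hdc and Gata2 were under log2 5 throughout. T cell genes summed to 56.9 to 60.6 in WT and 61.9 to 65.6 in KO IL-2 arrays over 9 of 9 genes (59.9 to 63.5 and 60.9 to 64.5 in IL-15), 2 of the 6 tested rising in IL-2, with Cd4, Cd8a and Cd8b1 under log2 5. Of 5 dendritic cell genes tested 2 rose and 1 fell in IL-2 (sums over 8 of 8 of 35.9 to 43.6 in WT and 39.9 to 47.6 in KO, and of 35.4 to 38.5 and 40 to 43.1 in IL-15), with Flt3, Xcr1 and Ccr7 under log2 5. For Cd74 and H2-Aa only the KO group means were above log2 5, which may have built a higher KO level into their passing. Of 5 macrophage genes 1 fell in IL-2 (31.3 to 42.3 and 30.5 to 41.5 over 7 of 7, and 25.7 to 32.5 and 29 to 35.8 in IL-15), with Mrc1 and C1qa under log2 5, and granulocyte genes were under log2 5 in all groups. The part of these markers in the values above was not tested.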

How the data were processed

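RNA of 10 NKC samples had been measured on Affymetrix mouse arrays of 45101 probe sets. The deposited log2 values were made by the authors with GC-RMA in Partek (versions not given in the sources used here) and were used without further scaling. Within each cytokine the sum of a WT and a KO array of one number was identical for all numbers (largest difference 0.00014 in IL-2 and 0.00013 in IL-15), so pair differences had been removed before deposit. This step is not described in the sources used here. The numbers were therefore taken as pairs. Each KO effect was fitted with the pair as a block (3 residual degrees of freedom). What paired the mice is not stated.

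Probe sets were named through the platform gene table, in which 34958 had 1 symbol, 932 several and 9211 were not listed. A gene was tested where its probe set with the highest mean reached log2 5 in 2 or more arrays. All 10 arrays entered 1 model in limma 3.58.1 (R 4.3.3), which was tested on simulated data first. IL-15 was compared with IL-2 without a block (6 residual degrees of freedom). Calls needed a Benjamini-Hochberg adjusted p below 0.05 over 9391 genes and 1.5-fold, the fold of the study. Differences are KO minus WT (or IL-15 minus IL-2), given as mean ± SD over pairs. For a dimmer group with a mean below log2 5, the fold is a lower limit (the brighter mean against log2 5), a choice made after the data were seen. The number of arrays limits the precision.

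The genes, lists and motifs were chosen with earlier results of these data known. By the rule for naming genes, every listed gene is accounted for, array values are given for genes called in either KO comparison and for Atf4 and Ddit3, and at most 3 called genes of each further list are named. The probe sets named beside the chosen ones, such as those of Slc7a11, Atf4, Slc38a2 and Shmt1, and the marker genes named were chosen after their values were seen. Alternatives were the filter, scaling, probe set choice, prior, block, threshold, arrays fitted and leaving out each array. Testing single probe sets was added after seeing the data. No other column of per-sample values was left out.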

Additional observations from a re-analysis of the deposited data

How the results depend on the processing

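Called genes of the set kept their direction under the settings tried, except that a further probe set of Cebpg, tested by itself, was at -0.42 in WT and -0.2 in KO for IL-15 versus IL-2, opposite to the chosen one. For KO versus WT in IL-2 the number of genes called (15 of 33) lay between 11 and 19 under other settings, except at 5 with no filter on low values, where more genes are tested, and at 5 to 11 with 1 array left out. With no replicate block it was 19, where 2161 of all genes were called higher and 1642 lower. With only the IL-2 arrays it was 11, beside 668 higher and 624 lower. With no filter 501 of all genes were higher and 341 lower. Slc7a5 was called in every planned setting, as were Cth, Nupr1 and Slc7a3, whose lower KO level was built into passing the filter. Atf3 missed with no filter (adjusted p = 0.0508, limma). In IL-15 the number (2) was 0 with no filter, after quantile normalization, with the mean of all probe sets of a gene, with only the IL-15 arrays and with single probe sets. It was 10 with no replicate block, where 14.1% of all genes were called, and 0 with 1 IL-2 array left out. At an unadjusted p under 0.05 it was 10, beside 545 of all genes higher and 724 lower. The median of the set in IL-15 lay between -0.76 and -0.11 with 1 array left out. The cause of these moves was not tested. Atf4 in IL-15, not called, ranged from -1.31 to 0.23 in its chosen probe set with 1 array left out, turning positive without an array of pair 1. The difference of effects was called for 5 genes with no replicate block and for 6 at an unadjusted p under 0.05, and for 0 otherwise. IL-15 versus IL-2 gave 25 to 32 calls in WT and 20 to 24 in KO NKC. In the main fits 48% of all genes were called in WT and 46.1% in KO NKC. Differences in genes under log2 5 cannot be measured, which limits Cth, Nupr1, Slc7a3, Atf3 and Bcat1 in IL-15.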
